A study of Mus musculus with 6 samples.

Results

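To ask which regulators of other blood lineages lie in closed chromatin and which keep open sites in progenitor T cells, the ATAC-Seq peaks around 9 genes were examined. These were Pax5 and Ebf1, which specify B cells, Spi1, Cebpa, Cebpb and Csf1r, which act in myeloid cells, and Gata1, Gata2 and Klf1, which act in erythroid, megakaryocyte and mast cells. The genes were chosen by name out of 22380 protein-coding genes. Every peak touching the gene body or the 50 kb to either side was counted, and a peak within 1 kb of an annotated start (TSS) of the gene was counted apart as an own-start peak. The 9 windows held 36 of the 32527 listed peaks.

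ATAC-Seq marks open chromatin by the insertion of a transposase. It was performed on Beko cells, a single mouse progenitor T-cell (pre-T) leukemia line with active Notch signaling, in 6 libraries. All were treated for 24 h, 3 with the Notch inhibitor DAPT, a γ-secretase inhibitor (GSI), and 3 with DMSO as control. The deposited result was 1 peak list for all 6 libraries, with a score of 0 at every peak. It therefore gave neither peak heights nor values per library, and no replicate error or difference between GSI and DMSO could be computed. A peak had to be found in 3 libraries, so a region with no listed peak was not shown to be closed.

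Transcription factors of the hematopoietic lineages are expressed together at low levels in stem and early progenitor cells, and most become restricted to their own lineage later. PU.1, the product of Spi1, drives myeloid and B-cell fates, is present in the earliest thymic progenitors and is shut off when these commit to the T lineage. Pax5 and Ebf1 hold the B-cell fate, C/EBP factors drive granulocytes and macrophages, and GATA1 with KLF1 drives red cell development.

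The peaks that carry the description below differed in sequence, and stretches of 300 bases from 6 of them are printed here, 5′ to 3′ on the strand of the gene, from NCBIM37 (mm9). Each is the exon-free stretch of its peak that holds most matches to 9 short motifs. TGGGAA is the core bound by RBPJ, the DNA-binding partner of Notch. GATA factors were searched as AGATAA, E proteins as CAGCTG, and RUNX factors as TGTGGT. For PU.1 and other ETS factors the core was GAGGAA, for C/EBP factors it was TTNCNCAA, with N for any base, and for SP and KLF factors it was GGGCGG. The motifs of EBF and CTCF were the remaining ones. Both strands were searched, overlapping matches were allowed, and capitals mark the matches. Because the stretches were chosen for their matches, they are not compared with other regions.

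The first 2 are shown because Spi1 was the only one of the 9 genes with both an own-start peak and peaks deeper in its body. They lie on the plus strand at chr2:90923162-90923461, in the peak next to the upstream Spi1 starts, and at chr2:90941596-90941895, in an intron. The first holds 3 RUNX matches, 1 E-protein match and 1 GGGCGG. The second holds 2 GATA matches.
Spi1 peak at 0.9 kb: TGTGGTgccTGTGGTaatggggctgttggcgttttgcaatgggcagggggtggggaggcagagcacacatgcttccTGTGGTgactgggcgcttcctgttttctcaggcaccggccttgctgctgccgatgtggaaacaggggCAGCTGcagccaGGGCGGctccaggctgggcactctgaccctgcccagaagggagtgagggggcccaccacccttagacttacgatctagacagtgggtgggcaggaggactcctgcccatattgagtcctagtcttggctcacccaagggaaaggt
Spi1 peak at 19.2 kb: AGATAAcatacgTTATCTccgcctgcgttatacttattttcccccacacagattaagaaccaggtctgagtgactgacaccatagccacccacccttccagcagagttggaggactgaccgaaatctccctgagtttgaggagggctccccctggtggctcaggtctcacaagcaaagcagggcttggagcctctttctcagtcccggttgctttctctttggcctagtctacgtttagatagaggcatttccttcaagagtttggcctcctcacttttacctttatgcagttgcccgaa

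The next 3 are shown because they were the peaks nearest to the starts of Pax5, Gata1 and Gata2. They lie at chr4:44685349-44685648 on the minus strand, at chrX:7541293-7541592 on the minus strand and at chr6:88139559-88139858 on the plus strand. The Pax5 stretch holds 2 RBPJ matches and 1 ETS match. In the Gata1 stretch are 1 GATA match, 2 ETS matches and 1 GGGCGG, and in the Gata2 stretch 1 match each for RUNX, RBPJ and GGGCGG.
Pax5 peak at 38.8 kb: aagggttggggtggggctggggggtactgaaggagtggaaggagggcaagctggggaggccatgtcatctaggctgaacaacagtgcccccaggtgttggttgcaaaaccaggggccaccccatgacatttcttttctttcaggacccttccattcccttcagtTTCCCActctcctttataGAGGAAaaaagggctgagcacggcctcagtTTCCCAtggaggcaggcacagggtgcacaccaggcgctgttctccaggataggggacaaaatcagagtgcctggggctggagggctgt
Gata1 peak at 13.8 kb: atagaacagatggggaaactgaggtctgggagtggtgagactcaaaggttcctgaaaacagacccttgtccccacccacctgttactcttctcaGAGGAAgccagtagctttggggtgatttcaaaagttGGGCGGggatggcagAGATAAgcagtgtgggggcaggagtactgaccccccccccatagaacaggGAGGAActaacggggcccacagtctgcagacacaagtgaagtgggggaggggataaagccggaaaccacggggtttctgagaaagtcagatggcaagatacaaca
Gata2 peak at -4.2 kb: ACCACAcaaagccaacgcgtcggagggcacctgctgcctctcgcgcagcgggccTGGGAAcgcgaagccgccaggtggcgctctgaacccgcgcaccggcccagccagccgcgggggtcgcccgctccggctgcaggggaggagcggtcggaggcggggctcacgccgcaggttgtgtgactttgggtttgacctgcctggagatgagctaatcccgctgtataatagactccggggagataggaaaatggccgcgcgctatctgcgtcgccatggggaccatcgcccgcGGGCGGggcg

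The last peak, at chr2:167482317-167482616 on the plus strand, is 1 of the 10 around Cebpb and holds 3 E-protein matches. It is followed by the 250 bases before the 5′ ends of Cebpb (chr2:167514165-167514414) and Cebpa (chr7:35904062-35904311), both on the plus strand. They are shown because both genes have CpG-rich 5′ ends, and a peak lay over that of Cebpb and none within 1 kb of that of Cebpa. The Cebpb promoter has 41 CpGs and 5 matches to GGGCGG. At least 1 such match is in 39.6% of all coding promoters of this length. The Cebpb promoter also has 1 CTCF match, and the CTCF motif is present in 493 of the 22380. The Cebpa promoter has 22 CpGs and none of the 9 motifs, which says only that these letters are not in the window.
Cebpb peak at -31.9 kb: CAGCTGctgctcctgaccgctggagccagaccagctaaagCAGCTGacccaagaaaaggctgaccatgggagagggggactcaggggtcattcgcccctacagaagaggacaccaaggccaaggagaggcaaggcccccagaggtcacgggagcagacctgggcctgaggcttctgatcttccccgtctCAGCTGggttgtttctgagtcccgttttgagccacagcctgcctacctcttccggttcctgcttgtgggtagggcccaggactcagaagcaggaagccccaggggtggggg
Cebpb 250 bases before the 5′ end: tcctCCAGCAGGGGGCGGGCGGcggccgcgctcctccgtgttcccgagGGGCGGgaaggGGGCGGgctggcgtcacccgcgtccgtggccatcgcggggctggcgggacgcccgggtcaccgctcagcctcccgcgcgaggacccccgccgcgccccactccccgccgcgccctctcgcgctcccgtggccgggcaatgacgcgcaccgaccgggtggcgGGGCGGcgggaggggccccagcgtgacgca
Cebpa 250 bases before the 5′ end: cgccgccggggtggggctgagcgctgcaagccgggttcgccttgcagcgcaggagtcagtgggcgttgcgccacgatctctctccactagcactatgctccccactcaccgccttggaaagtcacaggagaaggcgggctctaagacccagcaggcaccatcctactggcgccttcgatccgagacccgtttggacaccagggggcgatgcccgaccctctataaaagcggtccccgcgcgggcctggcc

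Of the 9 regulators, 4 had an own-start peak (Spi1, Cebpb, Gata1 and Klf1) and 5 had none (Pax5, Ebf1, Cebpa, Gata2 and Csf1r). Among all coding genes 46.9% had a peak within 1 kb of an own start, so the share of 44.4% was close to the background. All 9 had a peak somewhere in the window, as did 77.2% of coding genes, and all 9 had at least 1 peak more than 1 kb from every annotated start, as did 64.0%. A peak touched the gene body of 5 regulators (Pax5, Spi1, Cebpb, Gata1 and Klf1), beside 53.9% of coding genes. No test was made of 9 chosen genes against the rest.

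Next, the 36 peaks were sorted by place. 5 lay at an own start, 4 in the body of the gene away from all starts, 11 at the start of another gene and 16 elsewhere in the window. Median widths were 768 bp for the 11 at starts of other genes and 862 bp for the 5 own-start peaks, near the median of 855 bp over all 11522 peaks of the list within 1 kb of a start. The 20 peaks away from every start ranged from 310 to 1065 bp with a median of 470.5 bp, beside 465 bp for all 21005 such peaks. Peak size thus followed place at the regulators as it did elsewhere in the list.

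**Figure D1:**
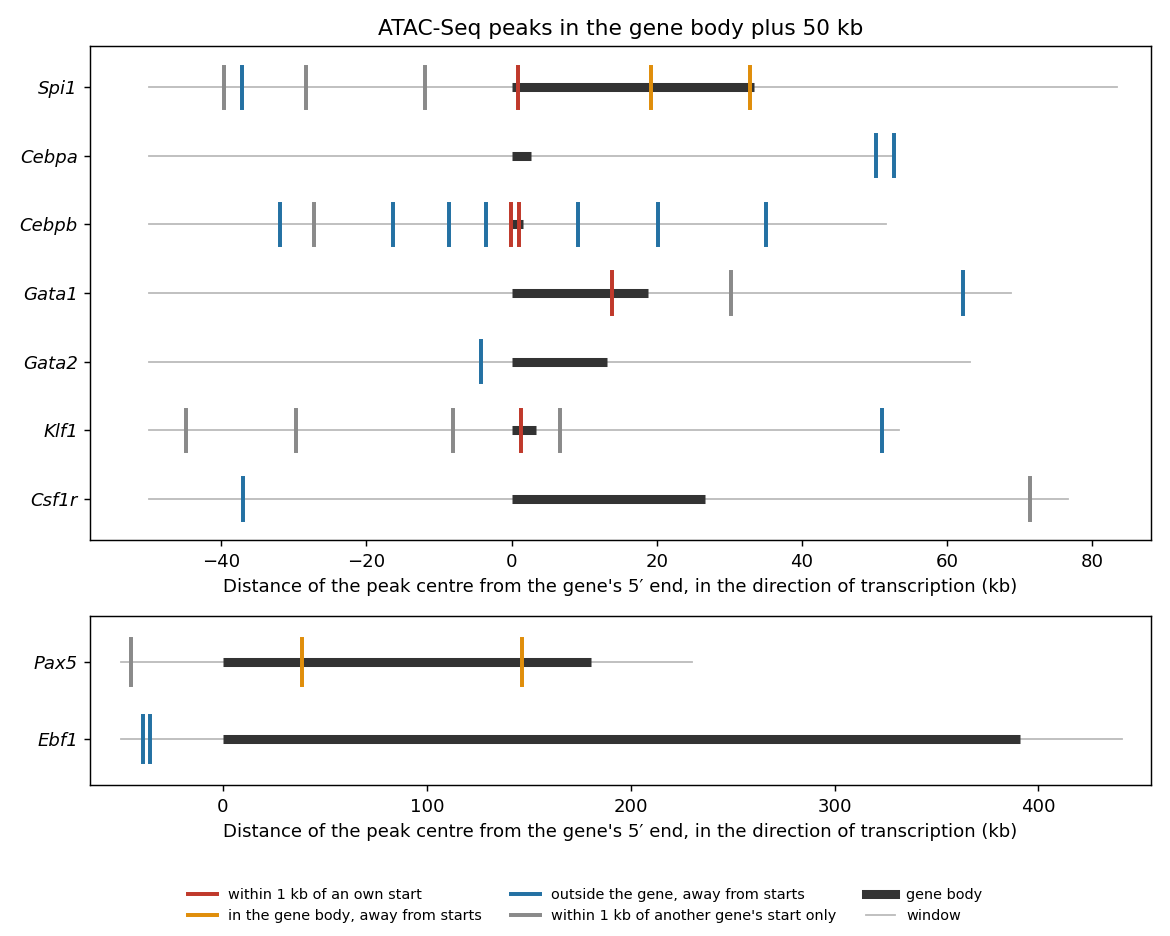
Peaks around the 9 regulators, drawn by distance of the peak centre from the gene's 5′ end in kb, in the direction of transcription (x axis), with 1 row per gene and a wider scale for Pax5 and Ebf1. Black bars stand for the gene body, gray lines for the window and colored marks for peaks by class. The row of Ebf1 has no peak in the gene, whereas that of Cebpb has 10 peaks around a short gene.

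Neither B-cell factor had a peak at any of its starts. Ebf1, the pioneer factor that opens B-cell loci, lies on the plus strand at chr11:44430819-44821593 (ENSMUSG00000057098.7). None of its 390775 bp was touched by a peak, and the window held 2 peaks, both upstream. These were 475 bp wide at 39.2 kb and 540 bp wide at 35.9 kb before the 5′ end (chr11:44391394-44391868 and chr11:44394696-44395235). From the second of them to the next peak the list was empty for 1.17 Mb, a stretch that covers the whole gene. Of coding genes with a neighbouring peak on both sides, 88.5% had a shorter peak-free stretch at the 5′ end, and the median was 27.5 kb. Both upstream peaks hold CAGCTG and GAGGAA.

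Pax5, the factor that commits cells to the B lineage, lies on the minus strand at chr4:44544017-44724318 (ENSMUSG00000014030.9). None of its 7 distinct starts had a peak within 1 kb. The distances from these starts to the nearest peak ran from 10955 bp at an internal start (Pax5-008) to 38.6 kb at the 5′ end. The stretch between the peaks to either side of the 5′ end was 83.1 kb. Yet the gene body held 2 peaks, both intronic. One, 467 bp at chr4:44685266-44685732, lay in intron 5, 38.8 kb downstream of the 5′ end, and is the Pax5 sequence printed above. An enhancer in intron 5 is known to drive Pax5 in B cells, and whether this peak coincides with it was not tested. The other, 397 bp at chr4:44577503-44577899, lay in intron 8, and holds 1 match each for RUNX, C/EBP, CTCF and GGGCGG. The remaining peak, 1128 bp wide, was at the start of Zcchc7, the neighbouring gene.

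Among the myeloid regulators, Spi1 and Cebpb had a peak within 1 kb of a start and Cebpa and Csf1r did not. No Spi1 start lay inside a peak. Spi1, named Sfpi1 in the annotation, lies on the plus strand at chr2:90922547-90955913 (ENSMUSG00000002111.8). Its 7 peaks amount to 5.25 per 100 kb of window, above 79.5% of coding genes. The own-start peak was 862 bp wide (chr2:90922980-90923841). It lay in intron 1 of Sfpi1-003, 415 bp from the start of Sfpi1-004 and 433 bp from that of Sfpi1-003, the 2 upstream transcripts. The 2 other starts, of Sfpi1-001 and Sfpi1-002, had no peak within 1 kb, with the nearest at 5.24 and 4.56 kb. The centre of the own-start peak lay 12.8 and 13.5 kb before these 2 starts. A regulatory element upstream of the main Spi1 promoter is known to bind RUNX1 and to drive the gene in myeloid and B cells. Its coordinates were not used here, so whether the own-start peak coincides with it was not tested. The whole own-start peak holds 3 TGTGGT and 1 GAGGAA.

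Within the body of Spi1 were 2 more peaks. One of 508 bp (chr2:90941497-90942004) lay in intron 2, 19.2 kb from the 5′ end, and holds the 2 GATA matches printed above. The other, of 434 bp (chr2:90955214-90955647), lay in exon 5 of Sfpi1-001 and was rich in CpGs, at 0.75 of the number expected from its base composition. Of the 4 peaks upstream of the gene, 3 were at the starts of Rapsn, Psmc3 and Slc39a13 and 1 was inside Rapsn. Hence 3 of the 7 peaks lay within 1 kb of starts of neighbours and 3 were away from all starts. With only the starts of coding transcripts, 4 were away from all starts.

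Cebpb, which acts in macrophages and in stress responses, had the most peaks of the 9. The gene is a single exon on the plus strand at chr2:167514415-167515918 (ENSMUSG00000056501.3). Its window held 10 peaks, or 9.85 per 100 kb, above 97.8% of coding genes, and the density of peaks away from starts, 6.90 per 100 kb, was above 99.1%. A peak of 1013 bp (chr2:167513856-167514868) covered the start and one of 527 bp (chr2:167515151-167515677) lay in the exon. Both also lay within 1 kb of a start of Tmem189, the gene on the opposite strand. The one in the exon was also within 1 kb of a start of A530013C23Rik. Neither can therefore be assigned to Cebpb alone. Of the 7 peaks away from every start, 4 lay upstream, at 31.9, 16.4, 8.6 and 3.5 kb before the 5′ end, all inside Tmem189. The other 3 lay 9.2, 20.2 and 35.0 kb after it, outside any coding gene. CAGCTG was in 7 of the 10 peaks and in 5 of the 7 away from starts, beside 43.9% of all peaks of that class, and in 4 of the 13 away peaks of the other 8 regulators. This count was singled out after the values were seen.

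Cebpa, the factor of granulocyte commitment, had no listed peak near it. It lies on the plus strand at chr7:35904312-35906945 (ENSMUSG00000034957.9), and the nearest peak was 50029 bp from the start, farther than for 75.2% of coding genes. The peak-free stretch around the start was 112.4 kb. Its 2 window peaks lay downstream, 428 bp wide at chr7:35954341-35954768 and 490 bp wide at chr7:35956804-35957293. The latter overlapped the window by only 142 bp. The former is the only peak of the 20 away from starts with an EBF match, found in 1.37% of all such peaks, and it also holds matches for RBPJ, E-protein, RUNX and ETS factors.

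Csf1r, the receptor for macrophage colony-stimulating factor, is on the plus strand at chr18:61265226-61291803 (ENSMUSG00000024621.8). No peak touched the gene. All 4 of its annotated starts were 36.8 to 37.1 kb from the nearest peak, and the peak-free stretch was 107.6 kb. The window held a 504 bp peak centred 37.0 kb upstream, inside Pdgfrb, and a 1112 bp peak at the start of Hmgxb3, downstream.

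**Figure D2:**
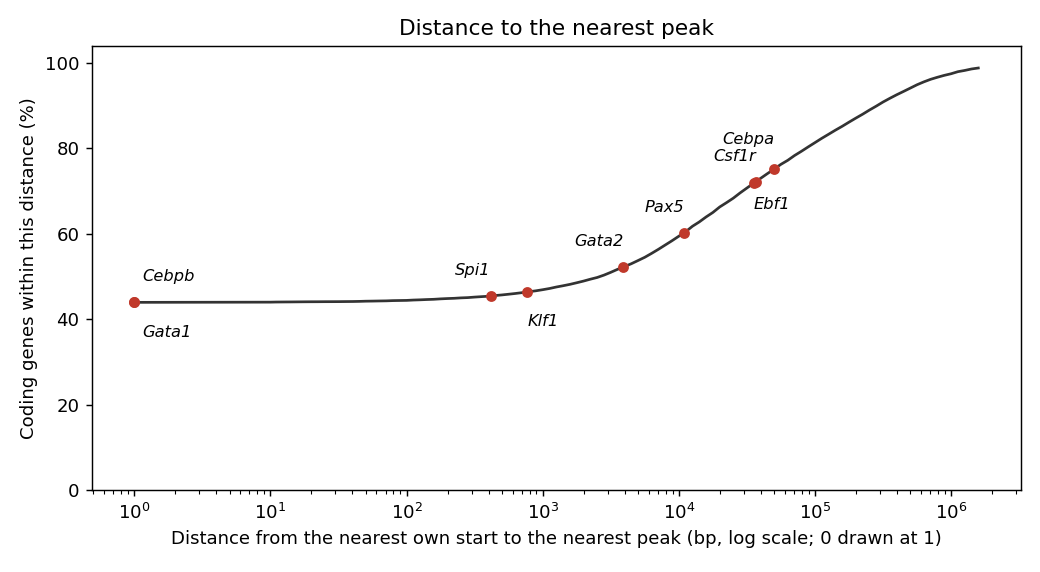
Distance from the nearest own start to the nearest peak in bp on a log axis (x axis) against the percentage of coding genes with a peak within that distance (y axis). The line stands for all 22380 coding genes and the points for the 9 regulators, with distances of 0 drawn at 1 bp. Cebpa lies farthest out at 50029 bp, with Csf1r and Ebf1 next.

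Erythroid and mast cell regulators were uneven. Gata1, needed for red cell and megakaryocyte maturation, lies on the minus strand at chrX:7536386-7555197 (ENSMUSG00000031162.8). Its own-start peak, 461 bp at chrX:7541183-7541643, covered the internal start of Gata1-003, within intron 3 of Gata1-002. The 2 upstream starts, of Gata1-001 and Gata1-002, had no peak within 1 kb, with the nearest at 3.39 and 13.6 kb. Accordingly the peak is at an own start only through the internal transcript. Its central 200 bp hold AGATAA, as do 3.10% of all peaks within 1 kb of a start and 8.95% of those farther away. The 2 further peaks in the window were at the start of Hdac6, 726 bp wide, and 62.2 kb downstream of the 5′ end, 411 bp wide.

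Gata2, which maintains stem and mast cells, had a single peak, the lowest count of the 9. The gene lies on the plus strand at chr6:88143885-88157024 (ENSMUSG00000015053.8). The peak, 499 bp at chr6:88139467-88139965, ended 3.92 kb before the 5′ end, and no further peak followed for 188.9 kb, a stretch longer than that of 71.3% of coding genes. The peak is CpG-rich, with 67.3% GC and a ratio of observed to expected CpGs of 0.85. CpG-rich peaks made up 2.94% of all peaks away from starts, and 2 of the 20 at the regulators, the other being the exonic peak of Spi1.

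Klf1, the activator of adult globin genes, lies on the plus strand at chr8:87425827-87429194 (ENSMUSG00000054191.7). Its window held 6 peaks, or 5.80 per 100 kb, above 83.7% of coding genes. However, 4 of them were at the starts of Farsa, Syce2, Gcdh and Dnase2a, and 6 other coding genes start in the window, the most of the 9. The density away from starts was 0.967 per 100 kb, above 52.8% of genes. The own-start peak, 994 bp at chr8:87426599-87427592, lay over exon 2, 772 bp from the single annotated start. It is CpG-rich with 6 matches to GGGCGG. The peak away from starts was 310 bp wide, the narrowest of the 36, and lay inside Rtbdn.

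**Figure D3:**
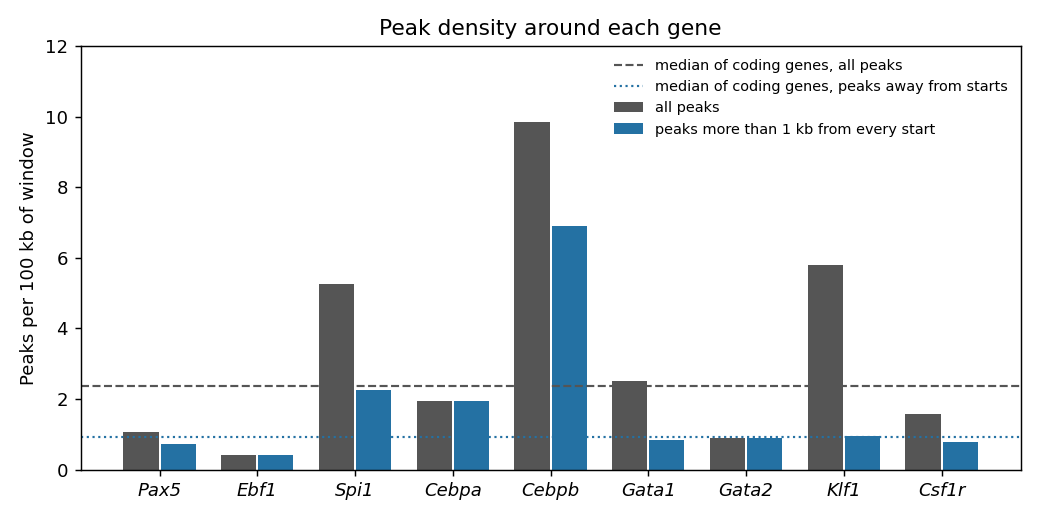
Peaks per 100 kb of window (y axis) for each regulator (x axis), with gray bars for all peaks, blue bars for peaks more than 1 kb from every start, and lines at the medians of all coding genes, 2.37 and 0.931. The gray bars of Cebpb, Klf1, Spi1 and Gata1 pass their line and the other 5 stay under it. At Klf1 the blue bar drops to the blue line.

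Ordered by density of peaks, the genes ran from Ebf1 (0.408 per 100 kb), Gata2 (0.884), Pax5 (1.07), Csf1r (1.58) and Cebpa (1.95) to Gata1 (2.52), Spi1 (5.25), Klf1 (5.80) and Cebpb (9.85). The median of coding genes was 2.37, with quartiles of 0.570 and 4.71. Without peaks at any start the order changed, with Spi1 (2.25) and Cebpa (1.95) next to Cebpb (6.90) and Klf1 falling to 0.967, close to the median of 0.931. As the list gives no error for a density, neighbouring values in either order cannot be told apart. The counts depended on the edge of the window. With 100 kb to either side Pax5 kept its 3 peaks and Ebf1 went from 2 to 3, while Cebpa went from 2 to 4, Gata2 from 1 to 3, Gata1 from 3 to 7, Csf1r from 2 to 7, Klf1 from 6 to 23, Spi1 from 7 to 9 and Cebpb from 10 to 15. With 10 kb Ebf1, Cebpa and Csf1r had none. Counted by peak centre, Cebpa kept 1 of its 2 peaks. The own-start distances just inside 1 kb were 736 bp for the exonic peak of Cebpb and 772 bp for Klf1, and the nearest just outside were 3.39 kb for Gata1-001 and 3.92 kb for Gata2.

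Because starts with many CpGs are often open in all cell types, the CpG content of the 1 kb around each 5′ end was examined. It was called CpG-rich where GC was at least 50% and the ratio of observed to expected CpGs at least 0.6. In coding genes 74.6% of CpG-rich 5′ ends had a peak within 1 kb, against 19.6% of CpG-poor ones. Cebpa (ratio 0.89), Cebpb (1.01) and Gata2 (0.77) were CpG-rich, and of these 3 only Cebpb had a peak. Of the 6 CpG-poor genes, Spi1 (0.18) and Klf1 (0.08) had one. The Klf1 peak, 772 bp from the start, lay outside the 1 kb of sequence measured and is itself CpG-rich, and Klf1 had no start peak within 500 bp. In the ratio bins of Spi1 and Klf1 6.41% and 3.21% of coding genes had a peak, and in those of Cebpa and Gata2 78.8% and 75.3% did. Pax5 and Ebf1 also have internal starts with a higher ratio, such as those of Pax5-007 with a ratio of 0.85 and Ebf1-006 with 0.97, and their nearest peaks were 31.1 and 36.4 kb away.

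**Figure D4:**
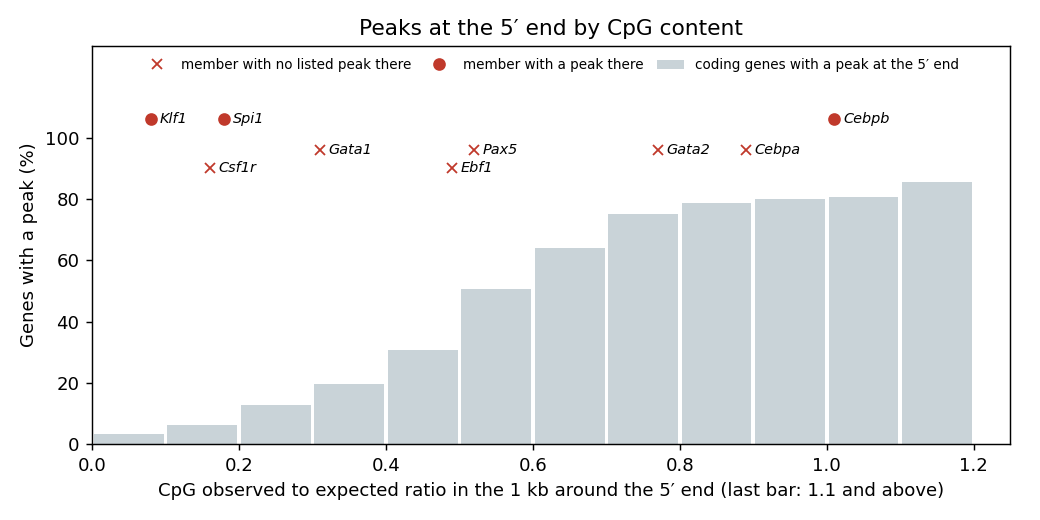
Percentage of coding genes with a peak within 1 kb of the 5′ end (y axis, bars) by the ratio of observed to expected CpGs in the 1 kb around that end (x axis). Marks give the ratio of each regulator, as a circle with a peak and a cross without, and their height carries no value. Cebpa and Gata2 are crosses above tall bars, and Klf1 and Spi1 circles above short ones.

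Motif content of the 20 peaks away from starts was set beside all 21005 such peaks. TGGGAA, the RBPJ core, was in 9 of the 20 (45.0%), beside 39.2% in the list, and CAGCTG also in 9, beside 43.9%. AGATAA was in 2 (10.0% beside 22.3%), TGTGGT in 5 (beside 45.5%), GAGGAA in 6 (30.0% beside 45.7%) and TTNCNCAA in 3 (15.0% beside 22.2%). GGGCGG was in 7 (35.0% beside 17.9%) and the CTCF motif in 6 (30.0% beside 18.2%). Only the central 200 bp were searched next, and some of these differences changed. TGTGGT was in 2 of 20 (beside 25.6%), AGATAA in 0 (beside 8.95%), CAGCTG in 5 (beside 25.6%) and TTNCNCAA in 1 (beside 8.60%). GAGGAA was in 5 (beside 22.3%) and GGGCGG in 2 (beside 9.29%). TGGGAA was in 5 (beside 16.4%), the CTCF motif in 5 (beside 13.5%) and the EBF motif in 1 (beside 0.448%). With 20 peaks, 7 of them at Cebpb, these shares are descriptions of few sites and were not tested. In windows of 300 bases at the centre of away peaks, TGTGGT was found in 33.1%, CAGCTG in 32.8% and AGATAA in 13.5%.

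Finally, further genes of each lineage were counted the same way, and T-lineage genes were used to check the label of the cells. That list includes Runx1, Ikzf1, Tcf12, Ets1 and Notch1, and whether its genes are particular to T cells was not tested. The lists were not matched for the CpG content of their starts. Among all coding genes, 46.9% had a peak at an own start. Such a peak was found for 22 of 23 T-lineage genes, including Tcf7, Bcl11b, Gata3, Cd3e and Lck, with Cd3d the exception at 1.12 kb. Of 15 further B-cell genes 4 had one, namely Pou2af1, a B-cell coactivator, Spib, an ETS factor related to PU.1, Vpreb1, a surrogate light chain gene, and Cr2, a complement receptor. Of 20 further myeloid genes 3 had one, namely Irf8, Gfi1 and Fcgr3. Irf8 and Gfi1 encode transcription factors and Fcgr3 an Fc receptor. Of 19 erythroid, megakaryocyte and mast cell genes 6 had one, namely Epor, Zfpm1, Nfe2, Gfi1b, Itga2b and Kit. Kit, the receptor of stem cell factor, is also used by early thymic progenitors. Whether the other named genes are used in T cells was not examined. The nearest peaks of Spib, Gfi1b, Epor and Fcgr3 lay 520, 540, 698 and 896 bp from an own start. By the first numbered transcript alone, the counts were 3 of 15 B-cell, 3 of 20 myeloid and 4 of 19 erythroid, megakaryocyte and mast cell genes. They were 20 of 23 for T-lineage genes, beside 43.8% of all coding genes. Vpreb1, Nfe2, Itga2b, Lef1 and Cd2 had no peak there. Of the globin genes, Hbb-b1 was 341.7 kb from the nearest peak and Hba-a1 2.96 kb.

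Peaks away from every start were in the windows of 12 of 15 B-cell, 14 of 20 myeloid, 11 of 19 erythroid, megakaryocyte and mast cell and 23 of 23 T-lineage genes, beside 64.0% of all coding genes. The median number of window peaks was 3 for the 9 regulators, beside 3 for all coding genes. It was 5 for B-cell, 4.5 for myeloid, 3 for erythroid, megakaryocyte and mast cell and 11 for T-lineage genes. These medians were not scaled to the length of the window, which differs from gene to gene. List genes that lie next to each other, such as Vpreb1 with Igll1, Elane with Prtn3 and Cd3e with Cd3d and Cd3g, share peaks, so the counts are not independent.

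**Figure D5:**
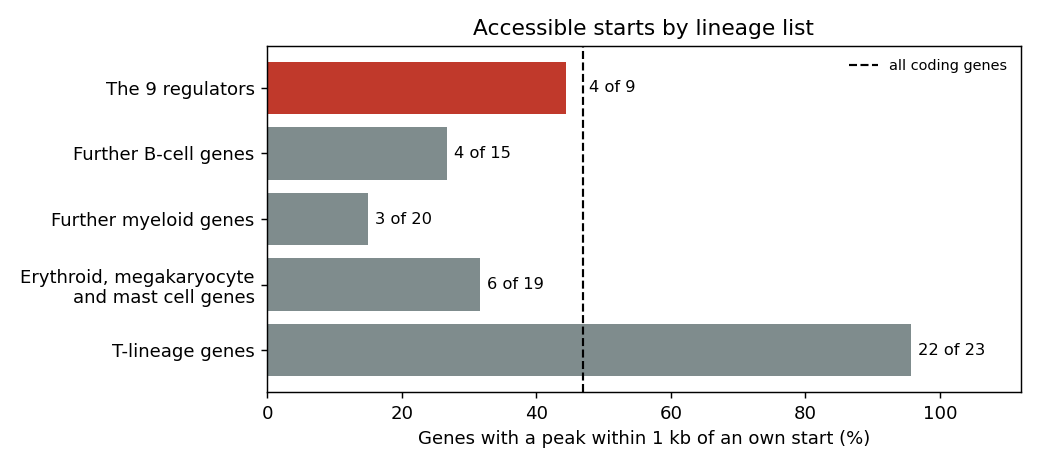
Percentage of genes with a peak within 1 kb of an own start (x axis) for the 9 regulators and the 4 further lists, with counts at the bars and the 46.9% of all coding genes as a dashed line. The T-lineage bar reaches 95.7%, and the bars of the other 4 lists stay under the dashed line, that of the 9 regulators by the least.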

How the data were processed

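Per the methods of the study, the authors aligned reads to mm9 with HISAT2 (2.2.1 in the submitters' processing notes), removed duplicates with Picard, called peaks per library with MACS2 without input, kept peaks found in 3 of 6 libraries and removed blacklisted regions. The deposited list holds chromosome, start and end, with a score of 0 in every line. Peaks of 1 treatment cannot be told from shared ones, and depth per library was not used.

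Genes and starts came from GENCODE vM1 and sequence from NCBIM37. The regulators and gene lists were chosen with earlier results of these data known, and all measured genes were counted. Of each further list the genes with an own-start peak, or without one where these were fewer, are named; Hbb-b1, Hba-a1 and the T-lineage examples were picked after their values were seen. Starts in the list were read as counted from 0 and are printed from 1. Distances to the nearest peak and of own-start peaks from a start run from peak edge to start. Places of peaks in kb from the 5′ end, also in the names of the printed sequences, are those of the peak centre unless an edge is named. Counting was tested on simulated peaks. Reads of 100 nt cut from the windows mapped uniquely for 95.4% (Gata1) to 99.3% (Gata2) with minimap2 2.31. Tfr2 was not in the annotation and was not analysed here. Cebpd, Gfi1 and Ptcra are not annotated as coding and were counted. RefSeq promoter entries (GRCm38.p6) were matched for 7 of the 9. Python 3.11.15 and numpy 2.4.6 were used. Alternatives were other start distances, window sizes, transcript sets, peak widths and joining of peaks.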

Additional observations from a re-analysis of the deposited data

How the results depend on the processing

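The count of 4 regulators with an own-start peak fell to 2 when the start had to lie inside the peak (Cebpb and Gata1). Of all coding genes, 44.0% had a start inside a peak. The count also fell to 2 (Cebpb and Klf1) with only the first numbered transcript, an alternative chosen after seeing the data. Under that rule 43.8% of coding genes had a peak. The count was 3 or 4 with a distance of 500 bp or 2 kb and with coding transcripts only. It was also 3 or 4 at the 5′ end only and with peaks of at least 500 bp. Regulators with a peak in the window numbered 6 with 10 kb to either side, 9 with 100 kb and 7 with peaks of at least 500 bp. With 10 kb, Ebf1, Cebpa and Csf1r had none. The 36 window peaks became 15 with 10 kb, 74 with 100 kb, 18 with peaks of at least 500 bp and 20 without peaks at starts, the last chosen after seeing the data. They were 35 by peak centre or after joining peaks within 1 kb. Regulators with a peak away from every start fell from 9 to 4 with 10 kb and to 4 with peaks of at least 500 bp, and were 8 at 2 kb from starts, where Klf1 was lost. A share of coding genes is given only for the start inside the peak and the first numbered transcript. The other counts have no such background beside them. Of 180 values per gene, 113 stayed within 1.5 times, 10 rose and 57 fell. These are not all distinct values. Window counts with 10 kb, with 100 kb and with peaks of at least 500 bp were entered in duplicate. All rises were those of Cebpa, Gata1, Gata2, Klf1 and Csf1r with 100 kb, each entered in duplicate.

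No paired analysis was possible because libraries cannot be separated in a merged list. For the same reason, leaving out replicates and GSI against DMSO were not run. Peak strength and depth per library were not used here, so the absence of a peak is not weighed.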
